A study of Mus musculus with 8 samples.

Results

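The chromatin around 10 mouse chemokine genes was examined by ATAC-seq in cutaneous squamous cell carcinoma (SCC) cells that differ in focal adhesion kinase (FAK). The genes were *Cxcl9*, *Cxcl10*, *Cxcl11*, *Ccl5*, *Ccl2*, *Ccl7*, *Cxcl1*, *Cxcl5*, *Cxcl16* and *Cx3cl1*. The regions examined were the accessible ones that overlapped each gene body or the 20 kb on either side of it on the mm10 build, with a region shared by neighbouring genes counted once. This rule gave 34 of the 69399 regions found in the series. Summed gene by gene the windows held 42 regions, because *Cxcl10* and *Cxcl11* share 4 and *Ccl2* and *Ccl7* share another 4.

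There were 4 lines with 2 libraries each. All came from tumours raised with the carcinogen and promoter pair DMBA/TPA in FVB mice of genotype K14CreER FAKflox/flox, with Ha-Ras as the driver gene, and in all of them FAK was deleted in culture by 4-hydroxytamoxifen. FAK-/- cells, the control, received no construct. FAK-WT, FAK-nls and FAK-kd cells carried a retroviral construct in a FAK-/- clone, selected with hygromycin, that expressed wild-type FAK, FAK deficient in nuclear localization (R177A, R178A, R190A, R191A, R216A and R218A) or kinase-dead FAK (K454R). The lines thus stand for 1 clone, and a difference between a pair of lines cannot be told apart from a difference between those cultures. The study asked which accessible regions depend on FAK, on its presence in the nucleus and on its kinase activity.

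Chemokines are small secreted proteins that draw leukocytes along a gradient by binding receptors on their surface. Tumour cells can make them, and the mixture they make helps to set which T cells, regulatory T cells, monocytes and neutrophils enter a tumour. Many chemokine genes are silent at rest and are switched on by inflammatory signals through the transcription factors NF-κB, interferon regulatory factors and AP-1, which bind near the transcription start site (TSS) and at enhancers further away.

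ATAC-seq cuts open chromatin with Tn5 transposase, and the deposited values describe peaks found in 1 library at a time. A region without a peak in a library is referred to as not called there. Each peak has a fold enrichment, which is its coverage over the local background of the same library, and a rank by p-value, with rank 1 the strongest. The lists held between 24383 and 53703 peaks after alternative chromosomes were removed, and both FAK-nls lists, with 24383 and 24959 peaks, were shorter than the other 6. Read depth was not used here. A short list leaves weaker regions uncalled throughout the genome. The counts of called chemokine regions and promoters were therefore repeated on the 24383 strongest peaks of every library, referred to as equal peak number. Tests of fold enrichment and the calls at marker genes and other genes of the chemokine system were not repeated in this way. Promoters of the keratinocyte markers were mostly not called, with *Krt14* called in 1 library, *Itgb4* in 3, and *Krt5*, *Trp63*, *Itga6*, *Cdh1*, *Perp* and *Sfn* in none. Promoters of the 8 lymphocyte and myeloid markers were called in no library, those of the fibroblast markers *Col1a1* and *Pdgfrb* in all 8 but those of *Col1a2* and *Pdgfra* in none, and of the 4 endothelial markers *Kdr* was called in 1 library and *Pecam1*, *Cdh5* and *Tek* in none. Of all protein-coding promoters, 45.6% were called in no library. The defining epithelial markers were thus mostly without a call at the 1 annotated start used per gene, and starts inside a gene were not counted. With the gene and 20 kb on either side, 4 of the 8 keratinocyte markers had a call in all 8 libraries and 1 in none. For the 8 lymphocyte and myeloid markers these counts were 4 and 2. The bearing of these calls on the chemokine regions was not tested.

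Some of the sequences behind the calls are shown first. The promoters of *Cxcl10*, *Cxcl1* and *Cxcl9* are given because the first pair had calls in 5 libraries each and the third had none in any library, although *Cxcl9* lies beside *Cxcl10* and its product binds the same receptor. Each line is the 250 bases before the RefSeq start on the strand of the gene (GRCm38.p6, the build of mm10), and capitals mark matches to the motifs searched. *Cxcl10* is chr5:92348890-92349139 on the minus strand, *Cxcl1* is chr5:90890995-90891244 on the plus strand and *Cxcl9* is chr5:92328080-92328329 on the minus strand. RefSeq promoter entries were matched for 4 of the 10 genes, the other being *Cx3cl1*.
Cxcl10 promoter: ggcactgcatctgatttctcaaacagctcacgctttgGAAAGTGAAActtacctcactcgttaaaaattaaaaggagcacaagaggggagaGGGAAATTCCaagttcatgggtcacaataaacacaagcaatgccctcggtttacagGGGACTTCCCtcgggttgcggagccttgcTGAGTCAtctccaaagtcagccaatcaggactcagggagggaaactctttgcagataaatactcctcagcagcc
Cxcl1 promoter: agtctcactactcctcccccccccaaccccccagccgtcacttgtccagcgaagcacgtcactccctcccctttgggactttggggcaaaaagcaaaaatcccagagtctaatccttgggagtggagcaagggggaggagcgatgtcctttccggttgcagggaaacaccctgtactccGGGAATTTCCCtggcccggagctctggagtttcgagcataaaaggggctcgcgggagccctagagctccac
Cxcl9 promoter: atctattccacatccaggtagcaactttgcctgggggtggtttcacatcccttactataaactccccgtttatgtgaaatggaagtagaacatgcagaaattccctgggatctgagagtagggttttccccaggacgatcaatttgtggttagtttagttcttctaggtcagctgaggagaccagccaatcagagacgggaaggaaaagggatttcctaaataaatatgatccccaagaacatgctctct

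Distal sequences are shown for 3 regions, each as the central 300 bases on the plus strand. A region is named by its nearest chemokine gene and the distance in bp of its centre from the TSS, with a minus sign for upstream. Ccl2 -11600 (chr11:82023822-82024121) was called in the FAK-WT libraries and nowhere else, Cxcl5 +4858 (chr5:90764069-90764368) was ranked high in FAK-WT cells alone, and Ccl5 -4228 (chr11:83534597-83534896) was called in all 8 libraries. Capitals mark an AP-1 motif in the first, and an interferon-stimulated response element (ISRE) followed by an NF-κB motif in the last.
Ccl2 -11600: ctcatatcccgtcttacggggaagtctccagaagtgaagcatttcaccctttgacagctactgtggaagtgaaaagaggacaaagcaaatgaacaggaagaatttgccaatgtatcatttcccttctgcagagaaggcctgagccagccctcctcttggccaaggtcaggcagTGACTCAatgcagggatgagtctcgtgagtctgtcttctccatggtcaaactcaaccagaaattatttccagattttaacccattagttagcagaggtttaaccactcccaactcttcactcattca
Cxcl5 +4858: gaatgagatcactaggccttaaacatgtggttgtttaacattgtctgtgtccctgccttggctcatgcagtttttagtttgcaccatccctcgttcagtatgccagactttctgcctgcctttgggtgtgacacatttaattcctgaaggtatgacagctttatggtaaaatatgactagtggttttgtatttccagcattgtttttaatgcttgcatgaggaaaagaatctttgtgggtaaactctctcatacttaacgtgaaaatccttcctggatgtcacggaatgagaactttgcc
Ccl5 -4228: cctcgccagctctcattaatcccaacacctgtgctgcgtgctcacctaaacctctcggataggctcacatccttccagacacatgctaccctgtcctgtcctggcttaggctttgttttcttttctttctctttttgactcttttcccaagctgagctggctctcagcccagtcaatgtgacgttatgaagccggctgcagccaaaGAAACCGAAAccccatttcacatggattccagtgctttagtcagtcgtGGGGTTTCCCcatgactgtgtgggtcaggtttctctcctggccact

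The motifs described here were AP-1 (TGACTCA), ISRE (GAAA, any 2 bases, then GAAA) and NF-κB (GGGRNWYYCC). In the last, R is A or G, N is any base, W is A or T and Y is C or T. All were sought on both strands as exact matches. The *Cxcl10* promoter held an ISRE starting at position -213 from the RefSeq start, NF-κB motifs at -159 and -103, and an AP-1 motif at -74. The *Cxcl1* promoter held 2 overlapping NF-κB matches at -71 and -70, which are the same site read from neighbouring bases. The *Cxcl9* and *Cx3cl1* windows held no exact match to these motifs, and sites that differ from them by a base were not sought. Over 32851 RefSeq promoter entries, the same 250 bases held an AP-1 match in 4.46%, an ISRE match in 2.98% and an NF-κB match in 3.90%.

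All 10 genes had at least 1 called region in their window in every library, as did between 66.95% and 77.82% of protein-coding genes in each library. The number of regions per gene ran from 1 (*Cxcl9*) to 6 (*Cxcl11* and *Cx3cl1*), with a median of 5, whereas the 21911 protein-coding genes had a median of 3 (interquartile range 1 to 5). Every library called 10 of the 34 regions (29.4%), and 6 (17.6%) rested on a single library, beside 25.8% and 28.6% of all regions. In 13 regions (38.2%) the replicates of each line gave the same call, beside 34.3% of all regions. No locus lacked a region called in all 8 libraries. These constant regions lay away from the chemokine starts, at distances between -14822 and +21429 bp, and none was a chemokine promoter.

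**Figure D1:**
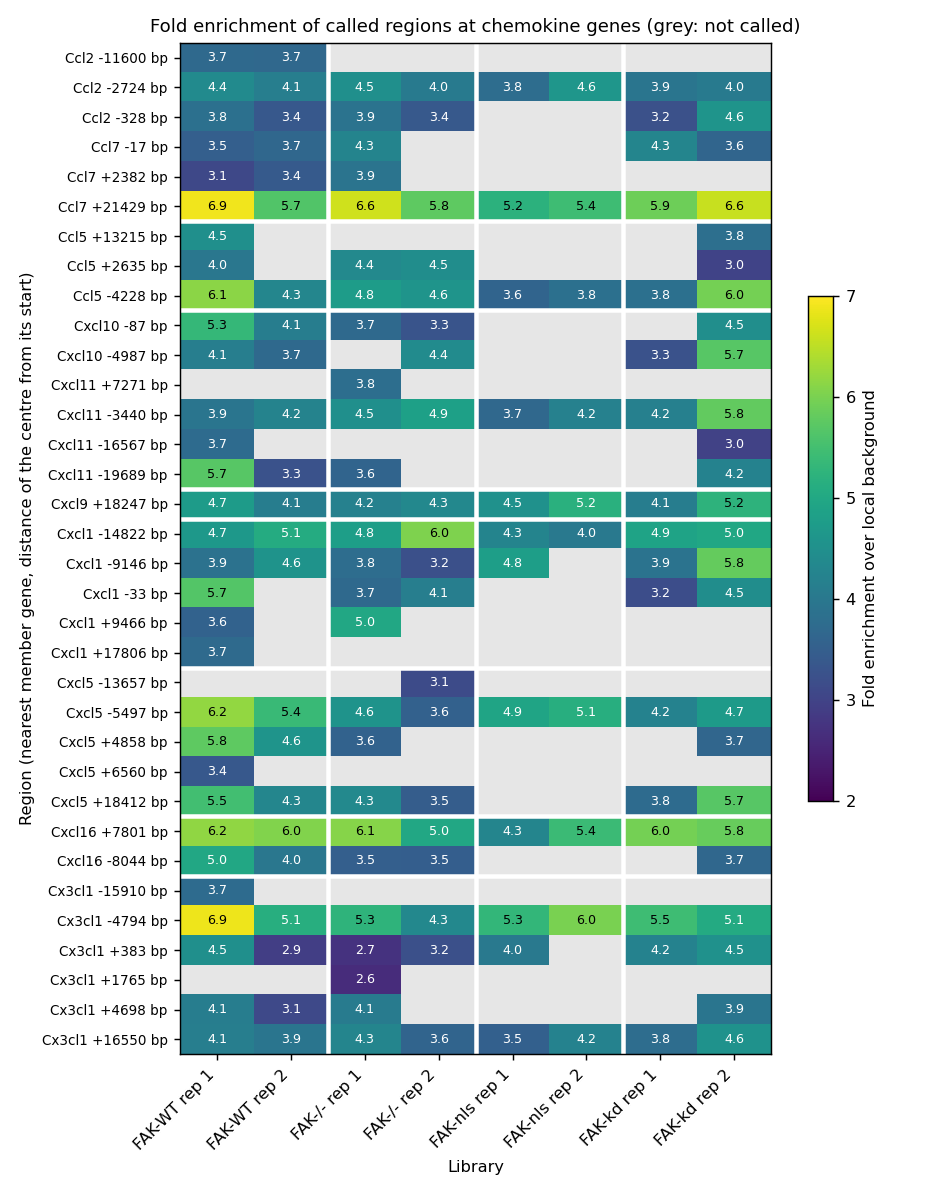
Fold enrichment over the local background (colour and printed value) of the 34 chemokine regions (vertical axis, named by nearest gene and distance in bp from its start, grouped by locus) in the 8 libraries (horizontal axis), with grey where a region was not called. Rows that are coloured throughout are the 10 regions called in every library, and most grey cells of the 5 start regions (Cxcl10 -87, Ccl2 -328, Ccl7 -17, Cxcl1 -33 and Cx3cl1 +383) fall in the FAK-nls columns.

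Of the ligands of CXCR3, the receptor on activated T cells and natural killer cells, only *Cxcl10* had a called promoter. The start of *Cxcl10* (ENSMUSG00000034855.13, chr5:92346638-92348889, minus strand) lay in the region Cxcl10 -87 (chr5:92348755-92349198), which covers its first exon and lies inside the gene *Art3*. Its fold enrichment was 5.34 and 4.11 in the FAK-WT libraries, 3.70 and 3.30 in FAK-/-, and 4.47 in FAK-kd replicate 2, with no call in FAK-nls or in FAK-kd replicate 1. Both FAK-WT values were above both FAK-/- values. Its ranks were 17038 and 22582 in FAK-WT and 23046 in FAK-kd replicate 2, which lie within the 24383 strongest peaks, whereas the FAK-/- ranks of 27998 and 30862 lie outside them. The peaks in this merged region were between 200 and 400 bp long in the 5 libraries that called it. Whether each of them covers the start itself was not examined.

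A second *Cxcl10* region, Cxcl10 -4987 (chr5:92353559-92354194), lay in an intron of *Art3*. It had fold enrichments of 4.14 and 3.72 in FAK-WT, 4.42 in FAK-/- replicate 2, and 3.26 and 5.70 in FAK-kd. It was not called in FAK-/- replicate 1 or in FAK-nls. Its strongest value was in an FAK-kd library, and the FAK-WT values fell between the FAK-kd values.

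*Cxcl11* (ENSMUSG00000060183.6, chr5:92359544-92365485, minus strand) is annotated as a polymorphic pseudogene, and its promoter was called in no library. The region of the *Cxcl10* and *Cxcl11* locus called in all 8 libraries was Cxcl11 -3440 (chr5:92368033-92369818), also in an *Art3* intron, a broad region of 1786 bp. In FAK-WT replicate 1 it ranked behind Cxcl11 -19689 and Cxcl10 -87, at 21945 against 16312 and 17038. Its fold enrichments were 3.94 and 4.23 in FAK-WT, 4.48 and 4.85 in FAK-/-, 3.68 and 4.19 in FAK-nls, and 4.18 and 5.81 in FAK-kd. FAK-WT lay below FAK-/- and overlapped FAK-nls and FAK-kd on this scale. Further upstream, Cxcl11 -19689 (chr5:92384933-92385416) had 5.70 and 3.26 in FAK-WT, 3.60 in FAK-/- replicate 1 and 4.22 in FAK-kd replicate 2.

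*Cxcl9* (ENSMUSG00000029417.9, chr5:92321347-92328079, minus strand), the third CXCR3 ligand, had no promoter call and a single region in its window. That region, Cxcl9 +18247 (chr5:92309424-92310240), holds the start of the neighbouring gene *Sdad1*. It was called in all 8 libraries with fold enrichments of 4.75 and 4.12 in FAK-WT, 4.20 and 4.33 in FAK-/-, 4.53 and 5.16 in FAK-nls, and 4.11 and 5.22 in FAK-kd. No library therefore had a called region at *Cxcl9* that did not belong to another gene's start.

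*Ccl5* (ENSMUSG00000035042.2, chr11:83525778-83530518, minus strand) encodes a ligand that draws T cells and regulatory T cells. The region of its window called in all 8 libraries was Ccl5 -4228 (chr11:83534253-83535239), which is intergenic. The fold enrichments there were 6.12 and 4.29 in FAK-WT, 4.76 and 4.58 in FAK-/-, 3.60 and 3.85 in FAK-nls, and 3.84 and 5.96 in FAK-kd. Both FAK-WT values were above both FAK-nls values, and they overlapped those of FAK-/- and FAK-kd. Its ISRE and NF-κB matches stand in capitals in the sequence given above.

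The start of *Ccl5* itself lay in no called region. The intronic region Ccl5 +2635 (chr11:83527203-83528564) reached the downstream end of the promoter window, which was set from 500 bp before to 2000 bp after the TSS. It was called with 3.97 in FAK-WT replicate 1, 4.35 and 4.45 in FAK-/-, and 3.01 in FAK-kd replicate 2. At equal peak number it remained in both FAK-/- libraries (ranks 23717 and 17306) and in no other, since the FAK-WT rank was 38942 and the FAK-kd rank 45024. This was the single chemokine region with calls in both FAK-/- libraries and neither FAK-WT library, and it had this pattern at equal peak number alone.

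*Ccl2* (ENSMUSG00000035385.5, chr11:82035571-82037453, plus strand) and *Ccl7* (ENSMUSG00000035373.2, chr11:82045712-82047525, plus strand) encode ligands of CCR2, the receptor that brings monocytes into tissue, and they lie next to each other. Their promoters were called in every line except FAK-nls. Ccl2 -328 (chr11:82034742-82035745), which spans the *Ccl2* start, had fold enrichments of 3.84 and 3.38 in FAK-WT, 3.90 and 3.39 in FAK-/-, and 3.23 and 4.60 in FAK-kd. It was called in all 6 libraries outside FAK-nls, and its values overlapped among those 3 lines. Ranks ran from 11262 (FAK-kd replicate 2) to 23495 (FAK-kd replicate 1), so that all 6 calls remained at equal peak number.

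The start of *Ccl7* lay in Ccl7 -17 (chr11:82045453-82045937), with fold enrichments of 3.52 and 3.68 in FAK-WT, 4.26 in FAK-/- replicate 1, and 4.28 and 3.63 in FAK-kd. These calls ranked below those at *Ccl2* except in FAK-kd replicate 1, with ranks from 19988 to 40651, and at equal peak number the FAK-kd replicate 1 call alone remained. Ccl7 +2382 (chr11:82047894-82048294), downstream of the gene, was called with 3.08 and 3.41 in FAK-WT and 3.92 in FAK-/- replicate 1, and was called in neither FAK-nls nor FAK-kd cells. Its ranks, 49050, 32881 and 30408, were all outside the 24383 strongest peaks.

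Regions of this locus that were called throughout ranked above its promoters, except that Ccl2 -2724 was behind Ccl2 -328 in FAK-kd replicate 2. Ccl7 +21429 (chr11:82066645-82067638, intergenic) had the best single rank of the 34 regions, 894 in FAK-/- replicate 1, and no rank beyond 5409. Its fold enrichments were 6.89 and 5.65 in FAK-WT, 6.64 and 5.77 in FAK-/-, 5.22 and 5.45 in FAK-nls, and 5.90 and 6.58 in FAK-kd. Ccl2 -2724 (chr11:82032197-82033497), in an intron of *Gm17268* and named after its values were seen, had 4.39 and 4.15 in FAK-WT, 4.50 and 4.04 in FAK-/-, 3.79 and 4.63 in FAK-nls, and 3.94 and 4.05 in FAK-kd. This second region was called in the FAK-nls libraries although the neighbouring *Ccl2* start was not.

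Ccl2 -11600 (chr11:82023745-82024198, intergenic) was the only chemokine region that the FAK-WT pair called and the other 6 libraries did not, a pattern that 1.99% of all regions have. The calls were weak, with fold enrichments of 3.71 and 3.70. Their ranks were 43535 of 53728 deposited peaks and 31129 of 39056, alternative chromosomes included. Neither call remained at equal peak number.

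**Figure D2:**
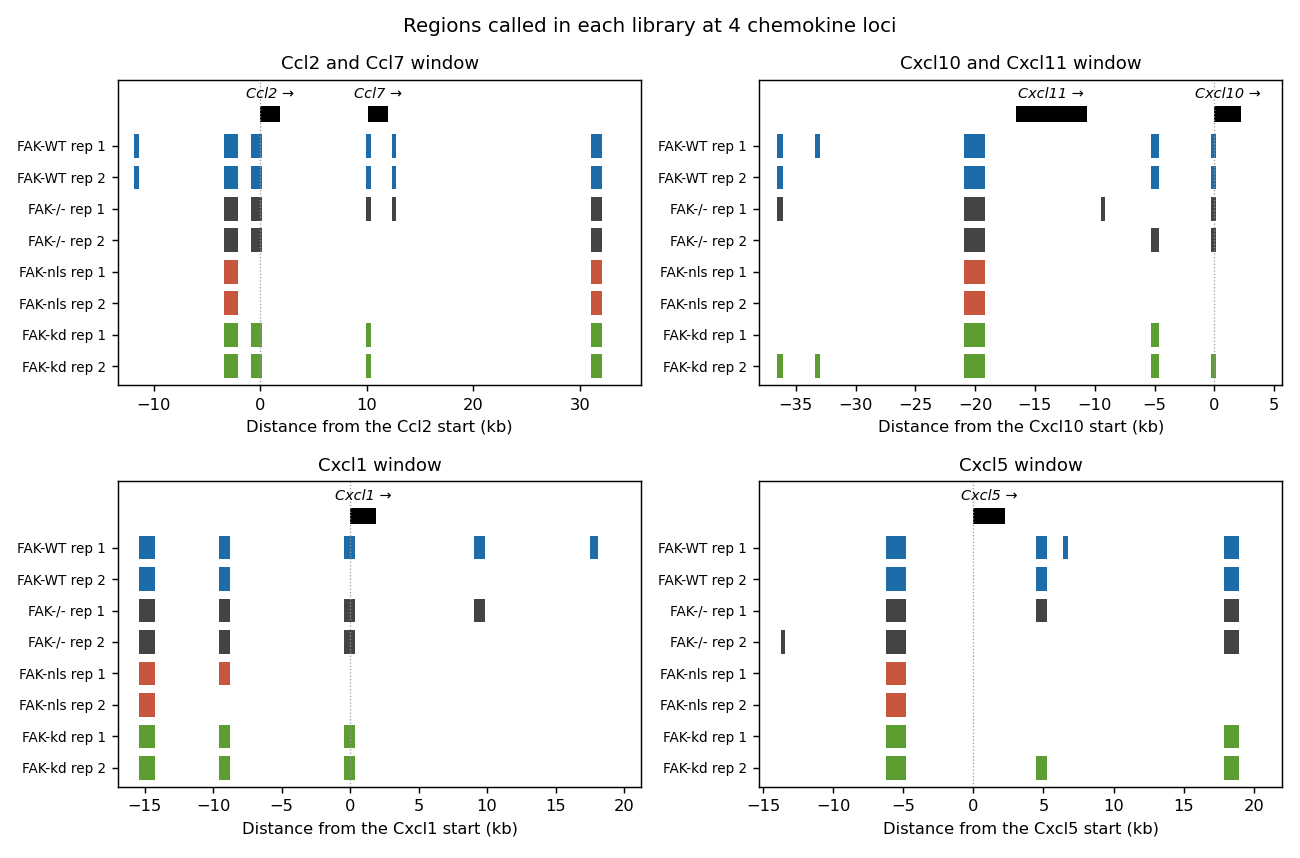
Merged regions (coloured bars, the shortest widened to stay visible) called in each library (rows) at the Ccl2 and Ccl7, Cxcl10 and Cxcl11, Cxcl1, and Cxcl5 windows, against distance from the start of the named gene in kb, with genes as black bars and arrows for the direction of transcription. The starts of Ccl2, Ccl7, Cxcl10 and Cxcl1 have no bar in the FAK-nls rows, whereas at least 1 region further away is called in all 8 rows of each map.

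*Cxcl1* (ENSMUSG00000029380.11, chr5:90891241-90893115, plus strand) and *Cxcl5* (ENSMUSG00000029371.7, chr5:90759360-90761624, plus strand) encode ligands of CXCR2, the receptor that draws neutrophils. Cxcl1 -33 (chr5:90890798-90891618), over the *Cxcl1* start and its NF-κB site, had fold enrichments of 5.66 in FAK-WT replicate 1, 3.71 and 4.14 in FAK-/-, and 3.18 and 4.45 in FAK-kd. It was not called in FAK-WT replicate 2 or in FAK-nls, so the FAK-WT libraries differed from each other here. FAK-WT replicate 1 (rank 18869) and FAK-/- replicate 2 (rank 22648) kept the call at equal peak number.

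Upstream of *Cxcl1*, Cxcl1 -14822 (chr5:90875816-90877023, intergenic) was called in all 8 libraries, with 4.67 and 5.07 in FAK-WT, 4.79 and 6.03 in FAK-/-, 4.26 and 4.02 in FAK-nls, and 4.91 and 4.98 in FAK-kd. Cxcl1 -9146 (chr5:90881684-90882506), named after its values were seen, was called in 7 libraries, with 4.81 in FAK-nls replicate 1 and no call in FAK-nls replicate 2. As deposited, both FAK-nls values at Cxcl1 -14822 were below those of the other 6 libraries, but after quantile normalisation they overlapped, with a difference from FAK-WT of 0.09 ± 0.17 (log2, SE, FAK-WT minus FAK-nls). That difference was 0.25 without FAK-WT replicate 1 and -0.06 without FAK-WT replicate 2.

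The *Cxcl5* promoter was called in no library, but 5 intergenic regions lay in its window. Cxcl5 -5497 (chr5:90753151-90754576) had fold enrichments of 6.19 and 5.38 in FAK-WT, 4.56 and 3.56 in FAK-/-, 4.91 and 5.14 in FAK-nls, and 4.22 and 4.72 in FAK-kd. As deposited, FAK-WT was above each of the other lines without overlap. The peaks there were between 353 and 1101 bp long.

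Cxcl5 +4858 (chr5:90763817-90764620) had 5.77 and 4.59 in FAK-WT, 3.57 in FAK-/- replicate 1 and 3.65 in FAK-kd replicate 2. Its ranks were 9816 and 13870 in FAK-WT but 35311 and 37920 in the other 2 libraries, so that at equal peak number it was called in FAK-WT cells alone. Cxcl5 +18412 (chr5:90777265-90778279) had 5.49 and 4.29 in FAK-WT, 4.35 and 3.48 in FAK-/-, and 3.75 and 5.71 in FAK-kd, and no call in FAK-nls. Like Ccl2 -328, it was called in all 6 libraries outside FAK-nls, a pattern found in 5.88% of the chemokine regions and 4.12% of all regions.

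*Cxcl16* (ENSMUSG00000018920.11, chr11:70453983-70459984, minus strand) and *Cx3cl1* (ENSMUSG00000031778.13, chr8:94772009-94782427, plus strand) encode the transmembrane chemokines, which can hold cells by CXCR6 and CX3CR1 as well as attract them once shed. The *Cxcl16* promoter was called in no library. Cxcl16 +7801 (chr11:70451751-70452616) holds the start of *Med11*, and its fold enrichments were 6.17 and 6.05 in FAK-WT, 6.10 and 4.99 in FAK-/-, 4.28 and 5.41 in FAK-nls, and 5.96 and 5.84 in FAK-kd. Upstream, Cxcl16 -8044 (chr11:70467811-70468246) had 5.00 and 3.99 in FAK-WT, 3.51 and 3.49 in FAK-/-, and 3.68 in FAK-kd replicate 2. Both FAK-WT values at Cxcl16 -8044 were above the other 3, but all 5 ranks, from 25123 to 37257, were outside the strongest 24383.

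*Cx3cl1* had the most widely called promoter, in 7 libraries. Cx3cl1 +383 (chr8:94772011-94772774) had fold enrichments of 4.50 and 2.92 in FAK-WT, 2.72 and 3.22 in FAK-/-, 4.02 in FAK-nls replicate 1, and 4.22 and 4.53 in FAK-kd. This was the single chemokine promoter with a call in an FAK-nls library, at rank 11625, whereas FAK-WT replicate 2 called it at rank 34415. A weak second call in the same promoter window, Cx3cl1 +1765 (chr8:94773618-94773931), was found in FAK-/- replicate 1 alone, at 2.64.

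The other *Cx3cl1* regions were distal. Cx3cl1 -4794 (chr8:94766862-94767568, intergenic) had 6.88 and 5.13 in FAK-WT, 5.26 and 4.33 in FAK-/-, 5.31 and 5.99 in FAK-nls, and 5.45 and 5.05 in FAK-kd, with FAK-nls within the FAK-WT range. Cx3cl1 +4698 (chr8:94776355-94777060), over an exon, had 4.11 and 3.10 in FAK-WT, 4.08 in FAK-/- replicate 1 and 3.95 in FAK-kd replicate 2. The latter lacked a call in both FAK-nls libraries.

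**Figure D3:**
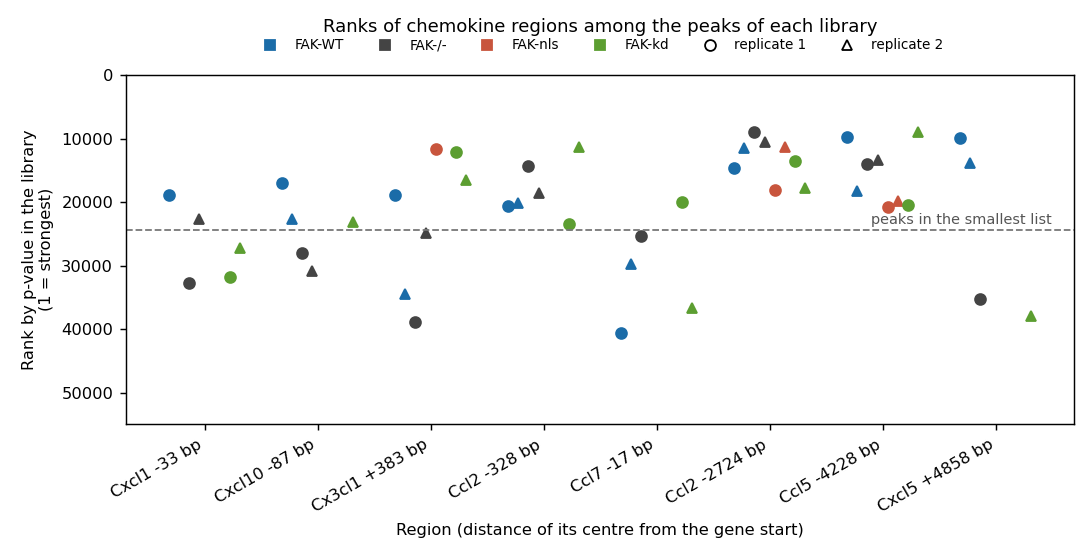
Rank by p-value (vertical axis, 1 is the strongest, axis inverted) of chemokine regions in each library that called them, with colours for the lines and shapes for replicates. The dashed line is the 24383 peaks of the smallest list, and Cxcl10 -87 and Cxcl5 +4858 have both FAK-WT points above it and both FAK-/- libraries below it or without a call, while Ccl2 -328 has all its 6 points above it.

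Counted over the 34 regions, 31 and 23 were called in the FAK-WT libraries, 26 and 20 in FAK-/-, 12 and 10 in FAK-nls, and 17 and 25 in FAK-kd. FAK-WT cells had a mean of 27 ± 5.66 regions, FAK-/- cells 23 ± 4.24, FAK-nls cells 11 ± 1.41 and FAK-kd cells 21 ± 5.66 (SD over 2 libraries). FAK-nls lay below every other library, whereas the other 3 lines overlapped. FAK-nls was also lowest over all regions, of which 77.0% and 55.9% were called in FAK-WT, 61.7% and 50.4% in FAK-/-, 34.9% and 35.7% in FAK-nls, and 47.1% and 65.8% in FAK-kd. The chemokine share was above that of all regions in 7 libraries and below it in FAK-nls replicate 2, with 29.4%. When a call asked for 50% of the region to be covered by peaks, the order turned in 5 libraries, with chemokine shares of 32.4% in FAK-/- replicate 2 (38.2% of all regions), 20.6% in FAK-nls replicate 1 (20.95%), 23.5% in FAK-nls replicate 2 (20.96%), 32.4% in FAK-kd replicate 1 (34.3%) and 50% in FAK-kd replicate 2 (56.1%).

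At equal peak number the chemokine counts were 17 and 15 in FAK-WT, 14 and 13 in FAK-/-, 12 and 10 in FAK-nls, and 14 and 16 in FAK-kd, while between 34.9% and 35.1% of all regions were called in each library. The means became 16 ± 1.41, 13.5 ± 0.707, 11 ± 1.41 and 15 ± 1.41 (SD over 2 libraries). Both FAK-WT libraries were still above both FAK-nls libraries, by a smaller margin than with full lists. They were also above both FAK-/- libraries, which they overlapped on full lists, and FAK-kd overlapped FAK-WT in both. With 2 libraries against 2, an exact permutation test of a pair of lines could not have reached 0.05, and none was made.

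**Figure D4:**
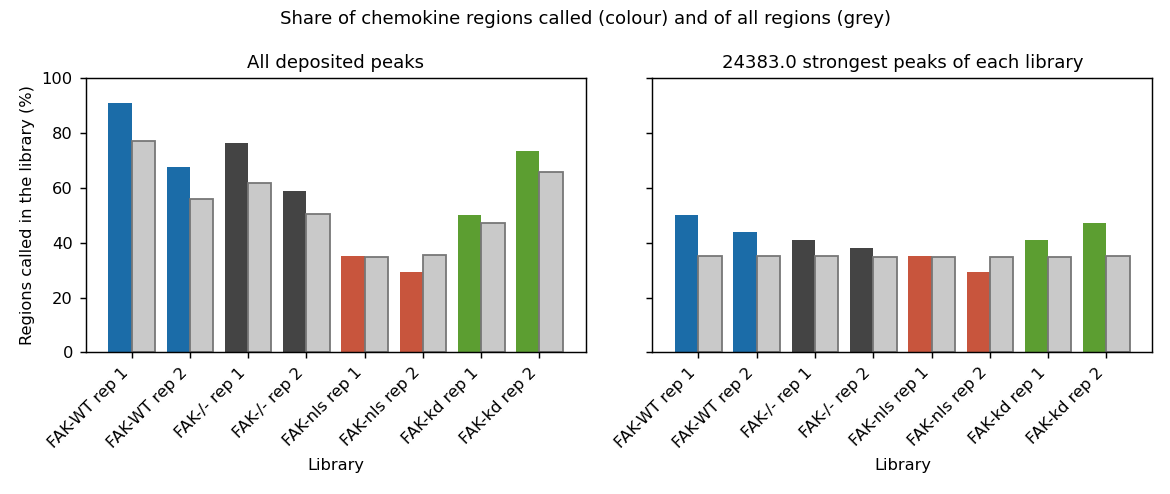
Share in percent of the 34 chemokine regions (coloured by line) and of all 69399 regions (grey) called in each library, with all deposited peaks on the left and the 24383 strongest peaks of each library on the right. Grey bars lie between 77.0% and 34.9% on the left and are level at about 35% on the right, where the coloured bars run from 29.4% to 50%.

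Promoters were counted in the same way. Of the 10 chemokine promoters, 6 and 4 were called in FAK-WT, 6 and 5 in FAK-/-, 1 and 0 in FAK-nls, and 4 and 6 in FAK-kd. Among the 21911 protein-coding genes, the called share was 50.25% and 47.9% in FAK-WT, 49.6% and 47.0% in FAK-/-, 42.2% in each FAK-nls library, and 46.75% and 49.6% in FAK-kd. No chemokine promoter was called in all 8 libraries, against 38.6% of protein-coding promoters, 4 were called in none (45.6% of protein-coding promoters), and 6 were called in some but not all (15.8%). At equal peak number the counts were 4 and 2 in FAK-WT, 2 and 3 in FAK-/-, 1 and 0 in FAK-nls, and 3 and 3 in FAK-kd. The share over all protein-coding promoters then ran the other way, with 36.5% and 39.6% in FAK-WT, 37.3% and 38.5% in FAK-/-, 42.2% and 41.7% in FAK-nls, and 40.9% and 39.0% in FAK-kd.

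To ask which regions followed FAK, FAK-WT cells were set against every other line in turn. These 3 comparisons share the FAK-WT libraries and are therefore not independent of each other. Against FAK-/- cells, 1 chemokine region (Ccl2 -11600) had a call from each FAK-WT library and none from FAK-/-, and 0 had the reverse pattern, where 4.89% and 1.18% of all regions did. At equal peak number these were 3 regions (Cxcl10 -87, Cxcl5 +4858 and Cxcl5 +18412) and 1 region (Ccl5 +2635), against 2.00% and 1.92% of all regions. Of the chemokine regions in both FAK-WT libraries these were 4.35% of 23 on full lists and 21.4% of 14 at equal peak number, against 9.41% and 6.94% of all such regions. No region was in both the full and the equal set, and the full count was 6 without FAK-WT replicate 2 (20.4% of all regions), 6 without FAK-/- replicate 1 (10.3%) and 2 without FAK-/- replicate 2 (6.17%). Of the promoters, *Cxcl10* was on the FAK-WT side at equal peak number alone, where 0.822% of protein-coding promoters were. *Ccl5* counted on the FAK-/- side, also at equal peak number alone, against 0.785%. It did so by Ccl5 +2635, a merged region that reaches the downstream end of the promoter window and not the start. Whether the FAK-/- peaks themselves reach that window was not examined. On full lists no chemokine promoter separated these lines, and 0.703% of protein-coding promoters were on the FAK-WT side.

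Against FAK-nls cells, the FAK-WT pair called 11 of the 34 regions that neither FAK-nls library did, and 0 had the reverse pattern, where 15.3% and 0.248% of all regions did. The 11 were Cxcl10 -87, Cxcl10 -4987, Cxcl11 -19689, Ccl2 -11600, Ccl2 -328, Ccl7 -17, Ccl7 +2382, Cxcl5 +4858, Cxcl5 +18412, Cxcl16 -8044 and Cx3cl1 +4698. They made up 47.8% (95% Wilson interval 29.2% to 67.0%) of the 23 chemokine regions called in both FAK-WT libraries, against 29.5% of all such regions, a share that lies just within the interval. This interval covers the counting of regions only. Without FAK-WT replicate 2 the count was 19, and the share of all regions was 37.6%.

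Of these, 4 remained at equal peak number, namely Cxcl10 -87, Ccl2 -328, Cxcl5 +4858 and Cxcl5 +18412, again with 0 in reverse, against 2.85% and 2.48% of all regions. They were 28.6% (95% Wilson interval 11.7% to 54.6%) of the 14 chemokine regions in both FAK-WT lists, against 9.87% of all such regions. This interval treats the regions as independent and does not cover the spread between libraries. It therefore cannot show an excess over all regions, and none was tested. Regions of a locus lie close together, so they are not independent of each other. Promoters of *Cxcl10*, *Ccl2* and *Ccl7* were called in both FAK-WT and neither FAK-nls library, where 3.38% of protein-coding promoters were, and *Cxcl10* and *Ccl2* remained at equal peak number, against 0.529%.

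The length of the list moved with this contrast. The 22 chemokine regions without a call in FAK-nls (64.7%, against 57.9% of all regions) ranked low elsewhere too. In FAK-WT replicate 1 their median rank was 32828, against 14009 for the 12 regions with an FAK-nls call, and 13 of the 19 that were called there ranked beyond 24383. In FAK-WT replicate 2 the medians were 26924 and 11473.5. The same gap appeared over all regions, with medians of 38468.5 and 14724 in FAK-WT replicate 1. How far list length accounts for the 11 regions was not tested beyond the equal lists.

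Against FAK-kd cells, 2 chemokine regions (Ccl2 -11600 and Ccl7 +2382) were called in both FAK-WT and neither FAK-kd library and 0 in reverse, where 4.33% and 0.830% of all regions were. At equal peak number the single such region was Cxcl5 +4858, against 1.80% in this direction, and 0 were in reverse, against 1.53%. These were 8.70% of the 23 and 7.14% of the 14 chemokine regions in both FAK-WT libraries, close to the 8.34% and 6.24% of all such regions. No chemokine promoter separated FAK-WT from FAK-kd cells in either set of lists, where 0.575% and 0.388% of protein-coding promoters did on the FAK-WT side. Without FAK-kd replicate 2 the count on full lists was 7 (11.8% of all regions), and without FAK-WT replicate 2 it was 6 (18.1%).

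Fold enrichment was next compared in the 10 chemokine regions called in all 8 libraries, within a fit of all 17917 such regions (limma on quantile-normalised log2 fold enrichment). No chemokine region passed an adjusted p of 0.05 in any of the 3 comparisons. Of all regions, 0.00558% passed against FAK-/-, 0% against FAK-nls and 0.0167% against FAK-kd, so the test called almost nothing anywhere. At an unadjusted p under 0.05 there was 1 chemokine region in each comparison, beside 6.39%, 15.3% and 5.47% of all regions. The median difference of the 10 regions (FAK-WT minus the other line, log2) was -0.06 against FAK-/-, -0.02 against FAK-nls and 0.00 against FAK-kd, and that of all regions was between -0.01 and 0.00.

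Cxcl5 -5497 was the region with an unadjusted p under 0.05 against FAK-/- and against FAK-kd. It was higher in FAK-WT by 0.40 ± 0.14 (log2, SE; 95% interval 0.11 to 0.70; limma adjusted p = 0.667) than in FAK-/- and by 0.33 ± 0.14 (0.04 to 0.63; limma adjusted p = 0.873) than in FAK-kd, and in both comparisons the libraries of the lines did not overlap. Such separation was common, being found in 5 of the 10 chemokine regions for FAK-/- (39.7% of all regions), 3 for FAK-kd (33.5%) and 3 for FAK-nls (44.6%), and relative to FAK-/- it ran the other way at Cxcl11 -3440, Ccl2 -2724 and Ccl7 +21429. Over the alternative settings the Cxcl5 -5497 difference from FAK-/- lay between 0.26 (without FAK-/- replicate 2) and 0.65 (with pileup). Against FAK-nls its difference was 0.01 ± 0.14 (-0.29 to 0.31). At Ccl5 -4228 the difference from FAK-nls was 0.33 ± 0.16 (-0.00 to 0.67; limma adjusted p = 0.329), and at Cxcl9 +18247, the *Sdad1* start, it was -0.30 ± 0.14 (-0.59 to -0.02; limma adjusted p = 0.301). The Ccl5 -4228 difference was 0.18 without FAK-WT replicate 1 and 0.48 without FAK-WT replicate 2, and the Cxcl9 +18247 difference was -0.13 without normalisation between libraries. None of these passed the threshold.

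The remaining differences ranged from -0.27 (Cxcl11 -3440, FAK-WT minus FAK-/-) to 0.20 (Cx3cl1 -4794, FAK-WT minus FAK-/-), with standard errors between 0.13 and 0.17. These ends were -0.15 and 0.11 without FAK-WT replicate 1, and -0.40 and 0.30 without FAK-WT replicate 2. At Ccl7 +21429 the 95% intervals were -0.36 to 0.20 against FAK-/-, -0.25 to 0.31 against FAK-nls and -0.30 to 0.26 against FAK-kd. With intervals of this width, smaller differences were not detectable in these data. When each comparison was fitted on its own 4 libraries, 16, 10 and 16 chemokine regions could be tested against FAK-/-, FAK-nls and FAK-kd, and 0 were called (limma, lowest adjusted p = 0.371, 0.398 and 0.770). Chemokine start regions could be tested in these fits alone, against FAK-/- and FAK-kd. Cxcl10 -87 was higher in FAK-WT than in FAK-/- by 0.31 ± 0.14 (log2, SE; 95% interval 0.01 to 0.62; limma adjusted p = 0.510). Ccl2 -328 was at -0.11 ± 0.14, and 9 of the 16 differences from FAK-/- were positive.

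**Figure D5:**
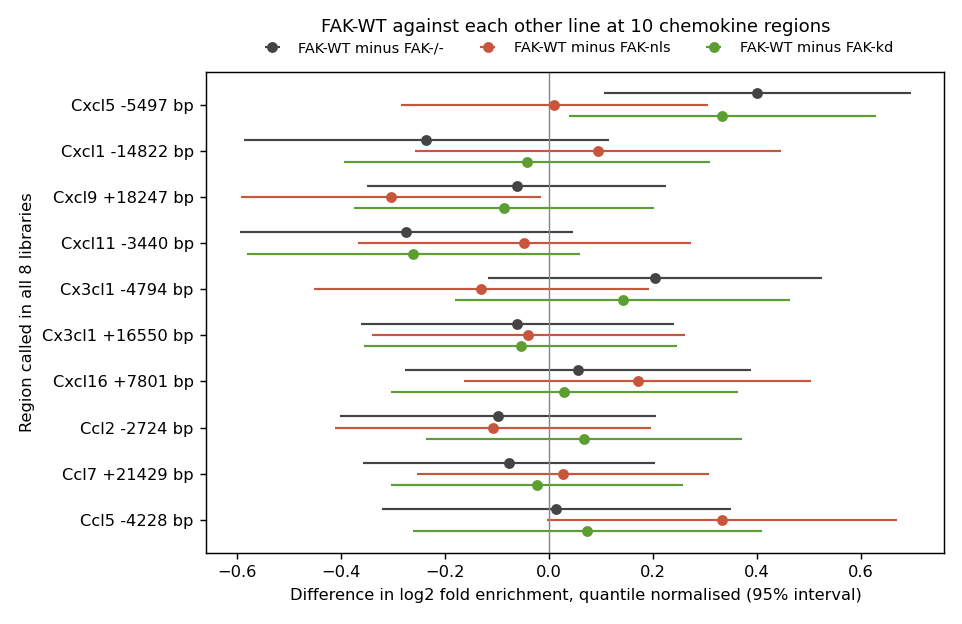
Difference in quantile-normalised log2 fold enrichment (horizontal axis, FAK-WT minus the other line, points with 95% intervals) for the 10 chemokine regions called in all 8 libraries. Most intervals span 0, and those that do not are Cxcl5 -5497 against FAK-/- and FAK-kd, on the FAK-WT side, and Cxcl9 +18247 against FAK-nls, on the other side.

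Motif matches in the central 500 bp of the regions were counted as a description of sequence that the choice of genes did not use. An NF-κB match was found in 7 of the 34 regions (20.6%; 95% Wilson interval 10.4% to 36.8%), against 6.31% of all 69399 regions. AP-1 was found in 16 (47.1%; 31.4% to 63.3%) against 35.3%, and ISRE in 4 (11.8%; 4.67% to 26.6%) against 6.40%. The 7 regions with NF-κB were Cxcl10 -87, Cxcl10 -4987, Cxcl1 -33, Cxcl1 -14822, Cxcl16 +7801, Cxcl16 -8044 and Ccl5 -4228. The set thus included regions called throughout and regions without an FAK-nls call. Cxcl5 +4858 and Cxcl5 +18412 held none of the 3 motifs.

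Other genes of the chemokine system were read out in the same way. Of 27 other chemokine ligand genes, 2 had a promoter called in all 8 libraries (*Ccl25* and *Cxcl17*), 21 in none (*Ccl1*, *Ccl3* and *Ccl4* among them) and 4 in some. *Ccl8* and *Ccl9*, named after their values were seen, were called in all 6 libraries outside FAK-nls, as *Ccl2* was. Of 22 receptor genes, *Ccr1* was called in all 8 libraries, 15 were called in none, including *Ccr2* and *Ccr4*, and 6 in some. By contrast, 10 of 12 genes for transcription factors known at chemokine promoters were called in all 8 libraries, among them *Relb*, *Nfkb1*, *Nfkb2* and *Irf1*. The other 2 were *Rela*, which encodes the p65 subunit of NF-κB, and *Irf9*, both called in all 6 libraries outside FAK-nls, as was the receptor gene *Ackr3*. This pattern was found in 1.48% of protein-coding promoters, whereas 38.6% were called in all 8 libraries, 45.6% in none and 15.8% in some. These calls and shares are from full lists and were not repeated at equal peak number.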

How the data were processed

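ATAC-seq peaks of 8 libraries, 2 in each of 4 SCC lines, were grouped by the sample labels. The authors aligned reads to mm10 with the bcbio pipeline and called broad peaks in each library separately with MACS2 (version 2.1.1 in the submitters' processing notes) at a q-value of 0.05, without pooling replicates. The deposited pileup is coverage signal, the deposited −log10 of the p-value, with that of the q-value, is the authors' test against local background, and the deposited fold enrichment is the ratio of pileup to that background. No reads per region were used here, so counts were not tested. Replicates were described as biological by the study.

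Peaks on chromosomes 1 to 19, X and Y that shared 1 bp or more were joined as a region, which took its highest fold enrichment in each library. Fold enrichment was tested with limma 3.58.1 (R 4.3.3, all 8 libraries in 1 fit, 2-sided, Benjamini-Hochberg adjustment over 17917 regions), a script tested on simulated data first. Other steps used Python 3.11.15 and pandas 2.3.3. Genes came from the GENCODE annotation of GRCm38, and sequences from RefSeq GRCm38.p6. Regions named were each gene's promoter region, those that separated FAK-WT from another line by calls, and, in each locus, the region with the best worst rank over the 8 libraries, with exceptions said to be so. Central 500 bp windows can reach beyond short regions. Some gene names are not reported here, nor is 1 of the 4 motifs searched, whose share in the chemokine regions was below that in all regions over the central 500 bp and above it over whole regions. The members, gene lists and tests were chosen with earlier results of these data known. Alternatives covered normalisation, pileup, stricter peaks, equal peak number, 50% cover, other windows, a replicate block and leaving out each library.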

Additional observations from a re-analysis of the deposited data

How the results depend on the processing

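None of the 30 chemokine region differences (10 regions, 3 comparisons) passed the limma threshold under any of the 16 alternative settings that gave them a value (462 values, lowest adjusted p = 0.168). With a −log10 q of at least 3 a value could be had for 4 of the 10 regions. Limma counts over all regions moved more. Against FAK-/- the 1 called region became 5 with median centring, 0 without normalisation, 34 with pileup in place of fold enrichment, and 0 with a −log10 q of at least 3; against FAK-nls the 0 became 213 with pileup; against FAK-kd the 3 became 0 without normalisation, 19 with pileup, 0 with a −log10 q of at least 3 and 0 on the 4 libraries of the comparison. Leaving out a library gave 0 to 2, 0 to 0 and 0 to 2 regions in the same order. None of the regions gained with pileup or another setting was a chemokine region. Without normalisation the median region shifted by 0.10, 0.15 and 0.01 (log2, FAK-WT minus the other line). The replicate block gave 1, 0 and 2 called regions. The difference between replicate 1 and replicate 2 of a line was also correlated between lines over the regions. These correlations ran from -0.20 (FAK-WT with FAK-kd) to 0.06 (FAK-WT with FAK-/-). None was strongly positive, as pairing by replicate number would give.

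Mean chemokine regions per library became 16 in FAK-WT and 13.5 in FAK-/- at equal peak number, 15 in FAK-/- with a −log10 q of at least 3 or with 50% cover, and with a 50 kb window 47 for FAK-WT, 42 for FAK-/-, 38 for FAK-kd and 18 for FAK-nls. Mean promoters became 3, 2.5 and 3 in FAK-WT, FAK-/- and FAK-kd at equal peak number, 3 in FAK-/- and FAK-kd with the stricter q, and 2, 0 and 2.5 in FAK-/-, FAK-nls and FAK-kd with 50% cover. Regions in both FAK-WT and neither FAK-/- library became 3 with the stricter q, at equal peak number or with 50% cover, 0 with a 10 kb and 4 with a 50 kb window, and the reverse 1 at equal peak number. For FAK-nls they became 6 with the stricter q, 4 at equal peak number and 18 with a 50 kb window, and 0 were in reverse throughout. For FAK-kd they became 1 at equal peak number, 4 with 50% cover, 1 with a 10 kb and 5 with a 50 kb window. Leaving out a library gave 1 to 6 regions (reverse 0 to 2) for FAK-/-, 11 to 19 for FAK-nls and 2 to 7 (reverse 0 to 1) for FAK-kd, and the 19 was without FAK-WT replicate 2. Dropping a library asks for fewer calls on its side and so changes the count by construction. The cause of the other shifts was not tested. A region that was not called may still be accessible, and read depth per library, which was not used here, was not tested against the counts of calls.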
